A study of Mus musculus with 12 samples.

Results

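Apolipoproteins are the protein part of the plasma lipoproteins, and 10 of their genes were followed here: Apoa1, Apoa2, Apoa4, Apoa5, Apob, Apoc1, Apoc3, Apoe, Apoh and Apom. They were chosen by name, and each name stood on a single entry of the deposited table, giving 10 of 21936 genes. Liver RNA was sequenced from male C57BL/6 J mice, bought at 6 weeks of age, that all had received carbon tetrachloride (CCl4, a liver toxin, 1 mL/kg) into the abdomen 2 times a week for 8 weeks. LFG mice (liver fibrosis group) were killed at the end of that course. REG mice (regression group) then received 200 μL of PBS through the tail vein 2 times a week for 4 weeks, and hADMSCs-Exo mice received 250 μg of exosome protein from human adipose mesenchymal stem cells in the same volume and on the same schedule. Each of these groups had 3 libraries with counts, and the 3 samples of the group given the stem cells themselves were not analysed here. The columns read as hADMSCs-Exo are headed MSC_E with a number, and were taken as the exosome group since that is the exosome group of the labels. No library from mice without CCl4 was among those analysed, so no comparison is with mice that had not received it. Against LFG, the other groups also differed by 4 weeks of time, and time and treatment cannot be told apart there.

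The liver makes most of the apolipoproteins of plasma. Apob forms the backbone of very low density lipoprotein (VLDL), the particle that carries triglyceride out of hepatocytes. Apoa1 and Apoa2 are the main proteins of high density lipoprotein (HDL), and the small exchangeable members pass between particles, where they steer lipases and receptor uptake. Hepatocytes are the main source of these mRNAs in liver, and macrophages also express Apoe. The genes lie partly in clusters. On chromosome 9 of the mouse build GRCm38 the table placed Apoa1 at chr9:46228580-46230466, Apoc3 at chr9:46232933-46235636, Apoa4 at chr9:46240696-46243459 and Apoa5 at chr9:46268633-46271919. The gaps between them were 2466, 5059 and 25173 bases, and Apoc3 is the member of the cluster on the minus strand. Apoc1 (chr7:19689481-19692660) and Apoe (chr7:19696109-19699188) both lie on the minus strand with 3448 bases between them. The remaining genes stand alone, Apoa2 at chr1:171225054-171226379, Apob at chr12:7977648-8016835, Apoh at chr11:108343354-108414396 and Apom at chr17:35128997-35132050. All 10 are protein coding and had the same start and end in the GENCODE annotation of this build. Of the 1815 exonic bases of Apoa4, 1266 also lie in exons of RNA genes on the opposite strand, Gm10680 and Gm47528, as do 524 of the 2522 exonic bases of Apoa5 with Gm47544. Whether counting used strand is not given in the sources used here, so the counts of Apoa4 and Apoa5 may hold reads of these partners.

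The 100 bases directly before the table's start of a gene are shown for 3 members whose levels moved together across the libraries (Apoa1, Apoa2 and Apoe) and for Apob, whose level varied least. They are taken from RefSeq promoter entries of build GRCm38.p6, which held 8 of the 10 members. Apoc1 and Apoc3 had no entry. The windows are chr9:46228480-46228579 (plus strand), chr1:171224954-171225053 (plus strand), chr7:19699189-19699288 (minus strand) and chr12:7977548-7977647 (plus strand). Each is written 5′ to 3′, and capitals mark 3 short motifs or their reverse complements, namely TATAA, then the motif TGACG, and the motif AGGTCA.

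Apoa1: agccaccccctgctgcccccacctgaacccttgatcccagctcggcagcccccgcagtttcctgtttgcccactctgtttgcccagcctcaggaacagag
Apoa2: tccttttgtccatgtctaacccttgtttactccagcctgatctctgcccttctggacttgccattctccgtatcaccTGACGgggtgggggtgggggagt
Apoe: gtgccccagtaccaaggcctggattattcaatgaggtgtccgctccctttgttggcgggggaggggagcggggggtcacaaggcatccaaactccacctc
Apob: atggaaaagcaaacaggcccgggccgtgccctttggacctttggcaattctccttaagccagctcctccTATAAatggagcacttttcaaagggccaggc

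Apob held 1 TATAA, whose first base lay 31 bases before the start, and Apoa2 held 1 TGACG, 23 bases before the start. Apoa1 and Apoe held none of the letters searched. In the 100 bases before the start of 32851 RefSeq promoters, TATAA or TTATA was found in 10.2%, TGACG or CGTCA in 10.5% and AGGTCA or TGACCT in 5.88%. The 3 windows shown for members that moved together had none of these motifs in common. Apoc1, Apoc3 and Apoh, whose levels followed those of Apoa1 or Apoa2 about as closely (Pearson r of 0.98 and 0.93 with Apoa1 and 0.925 with Apoa2 over the 9 libraries), had no such window searched. The windows printed end at the table's start, whereas those of all promoters end at the RefSeq start. That start is the same base in an entry each of Apoa2 and Apoe, but lies 50 bases further on for Apoa1 and 29 for Apob. Further RefSeq entries of Apoa2 and Apoe start elsewhere and are not shown.

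The libraries held 13837445 to 19840917 counts, and the library labelled LFG 3 stood apart. Over the log2 CPM of 12760 genes (counts scaled to library size by TMM, prior count 2) its Pearson correlation was 0.834 with LFG 1 and 0.874 with LFG 2, whereas it ranged from 0.896 to 0.94 with the 6 REG and hADMSCs-Exo libraries. Between LFG 1 and LFG 2 the correlation was 0.965. LFG 3 went against its label in its stellate cell markers. The sum of 10 of them, fibrillar collagens included, was 952, 592 and 38.5 CPM in LFG 1, 2 and 3, against 128 to 210 CPM in REG and 47.1 to 112 CPM in hADMSCs-Exo. Of these, the collagen gene Col1a1 was at 259, 128 and 2.68 CPM in LFG 1 to 3, so that LFG 3 was the lowest of the 9 libraries. Whether LFG 3 is mislabelled or came from a liver with little fibrosis was not tested. Hepatocyte markers were high everywhere, with 9 of the 10 in the table and sums between 92254 CPM (LFG 1) and 181318 CPM (REG 1), so the tissue label held. The fold changes and calls against LFG are therefore given with and without LFG 3.

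Together the 10 genes took up a large share of the liver mRNA. Their counts made up 2.8%, 3.52% and 7.26% of all counts in LFG 1, 2 and 3, 4.86%, 5.59% and 4.7% in REG, and 4.27%, 4.33% and 4.73% in hADMSCs-Exo. LFG held both the lowest and the highest library, and the group means were 4.53% ± 2.39 in LFG, 5.05% ± 0.474 in REG and 4.44% ± 0.251 in hADMSCs-Exo (SD, n = 3). Apoe and Apoa1 alone supplied 65.9% to 72.7% of the members' counts in each library.

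Per length, in the FPKM the authors deposited (fragments scaled by gene length and library total), the order of mean levels was Apoe, Apoa1, Apoa2, Apoc1, Apoh, Apoc3, Apob, Apom, Apoa5 and Apoa4. Apoe had a mean of 10427 FPKM over the 9 libraries (lowest 5610, median 10449, highest 14592) and ranked 3 in the whole table. Apoa1 (median 8205 FPKM) and Apoa2 (median 7826 FPKM) followed at ranks 4 and 5. Apoc1, Apoh and Apoc3 formed a middle set with median levels of 2033, 1321 and 924 FPKM. Apob, Apom and Apoa5 were lower, with medians of 297, 263 and 188 FPKM, and Apoa4 was lowest at a median of 9.52 FPKM and a range of 3.48 to 102 FPKM. Of the 9 pairs of neighbours in this order, 8 had ranges that overlapped over the 9 libraries. Apoc3 and Apob did not, since the lowest Apoc3 value (752 FPKM) lay above the highest Apob value (384 FPKM). Within each library Apoa2 lay above Apoc1 and Apoc1 above Apoh in 9 of 9 libraries, whereas Apoa1 lay above Apoa2 in 6 of 9.

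**Figure D1:**
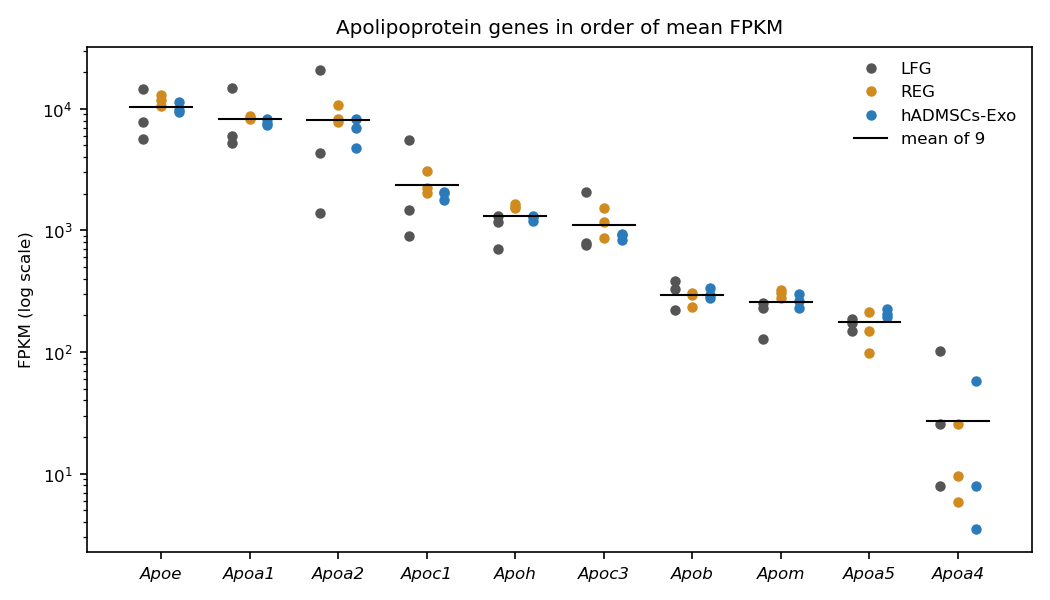
The FPKM of each apolipoprotein gene on a log axis, with genes in order of their mean; points are single libraries coloured by group and the line is the mean of the 9 libraries. Apoe, Apoa1 and Apoa2 lead with means of 10427, 8275 and 8150 FPKM, the gap between Apoc3 and Apob is the one that no library crosses, and Apoa4 lies lowest with the widest relative spread.

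The members differed widely in how much they varied from liver to liver. The SD of log2 CPM over the 9 libraries was 1.47 for Apoa4 and 1.28 for Apoa2, and 2.41% and 4.27% of the 12760 genes varied more. Apoc1 (0.91), Apoc3 (0.66), Apoe (0.62), Apoa1 (0.61) and Apoh (0.55) came next, then Apoa5 (0.45) and Apom (0.39), beside a median of 0.40 over all genes. Apob, with an SD of 0.15, varied less than 96.4% of genes. The SD within LFG was larger than within REG or hADMSCs-Exo for Apoa1 (1.18), Apoa2 (2.35), Apoc1 (1.73), Apoc3 (1.18), Apoe (1.08) and Apoh (0.84). It was not for Apoa4, with 1.46 in LFG and 2.04 in hADMSCs-Exo, nor for Apoa5, Apob and Apom. LFG 3 was the highest of the 9 libraries for 6 of the 10 members (Apoa1, Apoa2, Apoa5, Apoc1, Apoc3 and Apoe), as it was for 25.7% of all genes. LFG 1 was the lowest for 6 (Apoa1, Apoa2, Apoc1, Apoc3, Apoe and Apoh), as it was for 19.7% of all genes.

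Of the members carried on HDL, Apoa1, which activates the enzyme that esterifies cholesterol on HDL, stood at 4717, 6767 and 22558 CPM in LFG 1 to 3, at 10452, 11688 and 10909 CPM in REG, and at 9884, 9313 and 9775 CPM in hADMSCs-Exo. REG and hADMSCs-Exo were each within a narrow band and did not overlap, while LFG reached beyond both on either side. Apoa2, the second protein of HDL, was at 539, 2151 and 13857 CPM in LFG 1, 2 and 3, so that LFG 3 held 25.7 times the CPM of LFG 1. In REG it was 4522, 6286 and 4427 CPM, and in hADMSCs-Exo 2484, 3694 and 4743 CPM, which overlapped. Apom, a lipocalin that carries sphingosine-1-phosphate on HDL, was 185, 214 and 161 CPM in LFG, 337, 335 and 297 CPM in REG, and 260, 231 and 324 CPM in hADMSCs-Exo. On this scale all 3 LFG libraries lay below every library of the other groups. As a share of all counts, without TMM scaling, Apom was at 0.0254%, 0.0232% and 0.013% in LFG 1 to 3, still below REG (0.0282% to 0.0329%) but overlapping hADMSCs-Exo (0.0232% to 0.0302%). The FPKM ratio of Apoa2 to Apoa1, in which library scaling cancels, was 0.263, 0.732 and 1.41 in LFG 1 to 3, against 0.934 to 1.24 in REG and 0.578 to 1.12 in hADMSCs-Exo.

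Among the members that act on triglyceride-rich particles, Apoc3, an inhibitor of lipoprotein lipase and of remnant uptake, was at 585, 701 and 2612 CPM in LFG, 906, 1672 and 1263 CPM in REG and 830, 930 and 1015 CPM in hADMSCs-Exo. Its hADMSCs-Exo libraries lay at the low end of the REG range and overlapped it. Apoc1, which hinders lipase action and remnant binding, was at 485, 1007 and 5061 CPM in LFG, 1719, 2498 and 1593 CPM in REG, and 1299, 1515 and 1616 CPM in hADMSCs-Exo. The LFG libraries again lay on either side of all others. Apoa5, which promotes lipolysis by lipoprotein lipase, was at 316, 343 and 586 CPM in LFG, 254, 585 and 395 CPM in REG and 553, 484 and 558 CPM in hADMSCs-Exo. Here the hADMSCs-Exo libraries were close together within the range of REG and LFG.

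Apoa4, which is induced in liver by fat loading and fasting, had a different pattern from the rest. Its level was 134, 42.8 and 17.9 CPM in LFG 1 to 3 (3190, 766 and 200 counts), 48, 18.7 and 11.1 CPM in REG, and 102, 6.27 and 15.3 CPM in hADMSCs-Exo. In each group 1 library, numbered 1 in the labels, stood above the other 2, and the highest and lowest of the 9 libraries differed 21.4-fold. LFG 1 was highest for Apoa4 and lowest for Apoa1, and the FPKM ratio of Apoa4 to Apoa1 was 0.0194 in LFG 1 and 0.00054 in LFG 3. The intestine is the other main site of Apoa4 expression. The intestinal marker genes Sis and Alpi had 0 counts in all 9 libraries, Lct had at most 0.11 CPM and Vil1 at most 1.77 CPM. Fabp2, an intestinal fatty acid binding protein and the remaining gene of that list of 5, was present in every library, at 41.1, 19.4 and 93.8 CPM in LFG 1 to 3, 26.3, 75.1 and 41.1 CPM in REG and 28.4, 36.6 and 33.5 CPM in hADMSCs-Exo. Whether intestinal RNA had a part in the Apoa4 level was not tested.

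Apob, the scaffold of VLDL, hardly varied. It was at 3895, 4223 and 3788 CPM in LFG, 3334, 4492 and 4450 CPM in REG, and 3978, 4637 and 4153 CPM in hADMSCs-Exo, and the groups overlapped throughout. Apoe, the ligand by which remnants bind hepatic receptors, was at 8724, 15243 and 38609 CPM in LFG, 25815, 30125 and 23533 CPM in REG and 20339, 20079 and 26215 CPM in hADMSCs-Exo. It was the most abundant member in counts in every library. Apoh, a plasma protein that binds anionic phospholipid, was at 821, 1717 and 2609 CPM in LFG, 2489, 2875 and 2615 CPM in REG, and 1851, 2089 and 2205 CPM in hADMSCs-Exo. All hADMSCs-Exo values lay below all REG values. In these bulk samples fewer cells of a type and less RNA per cell cannot be told apart.

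**Figure D2:**
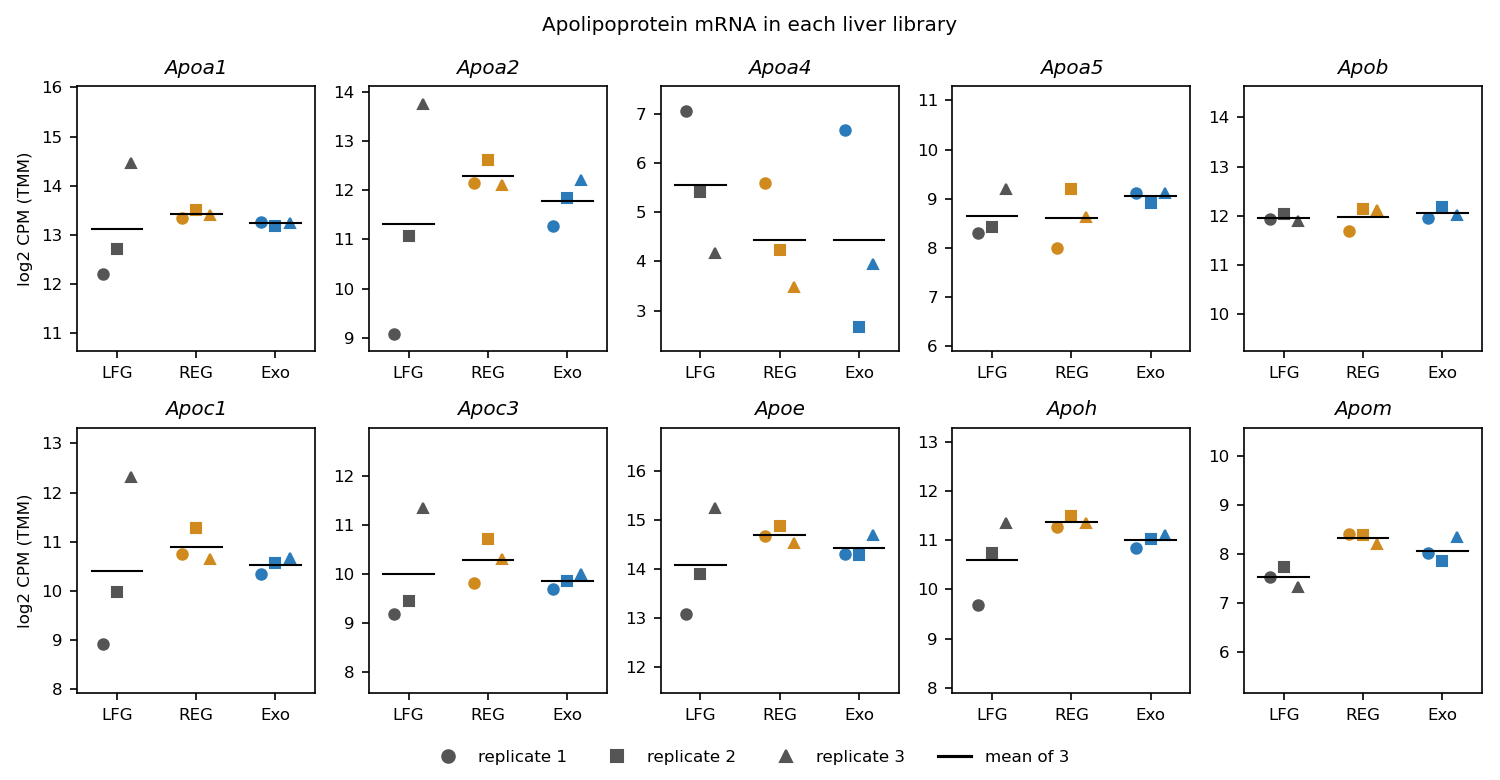
Log2 CPM of the 10 apolipoprotein genes in each library; the axes of all panels span the same number of log2 units, symbols give the replicate number, colours the group and lines the mean of 3 libraries (Exo, hADMSCs-Exo). The LFG points spread widely for Apoa1, Apoa2, Apoc1, Apoc3, Apoe and Apoh with LFG 1 lowest, hardly at all for Apob, and in the reverse order for Apoa4, while the 3 LFG points of Apom lie below all others.

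The comparison of hADMSCs-Exo with REG asks what the exosomes added over the 4 weeks of injections. None of the 10 members was called, a call being an adjusted p under 0.05 and a log2 fold change of 1 or more in either direction in edgeR's quasi-likelihood test over 12337 genes. By the same rule 1 gene in all was called (0.00811% of the genes tested), and DESeq2 (0.543% of all genes called) and limma (0.0243%) called no member either. At an unadjusted p under 0.05 there was 1 member, Apoh, where 10.0% of all genes passed. The members leaned downward, with 7 of 10 lower in hADMSCs-Exo and a median log2 fold change of -0.25, beside 0.008 over all genes tested. The summed level of the 9 hepatocyte markers was 142249, 140648 and 134412 CPM in hADMSCs-Exo and 181318, 171119 and 169974 CPM in REG, without overlap. This gap lay in Alb, the albumin gene, at 102170, 106969 and 90054 CPM in hADMSCs-Exo and 139528, 132115 and 132718 CPM in REG. The sums of the other 8 markers overlapped, at 33679 to 44358 CPM and 37256 to 41790 CPM. Their part in the members' values was not tested. Apoh fell short of a call with a log2 fold change of -0.38 ± 0.15 (SE), an unadjusted p of 0.0382 and an edgeR adjusted p of 0.479. Apoc3 was at -0.47 ± 0.22, Apoa2 at -0.48 ± 0.26 and Apoc1 at -0.39 ± 0.20 log2, with edgeR adjusted p-values of 0.53, 0.572 and 0.556. Apoe and Apom were each at -0.25 (SE 0.20 and 0.16), and Apoa1 at -0.19 ± 0.16. Apoa5 (0.37 ± 0.27), Apoa4 (0.65 ± 0.93) and Apob (0.057 ± 0.18) had positive log2 fold changes, all smaller than 2 standard errors. Ranges did not overlap for Apoa1 and Apoh, 2 of 10 members, and for 15.5% of all genes, so this share is near the background. An exact permutation test of 3 libraries against 3 cannot go below 0.1. The value for Apoa4 rested on single libraries, with a log2 fold change of -1.28 without hADMSCs-Exo 1 and 1.47 without REG 1. Leaving out 1 library also moved other members. Apoa2 ran from -0.72 (without hADMSCs-Exo 3) to -0.27 (without hADMSCs-Exo 1), and Apom from -0.40 (without hADMSCs-Exo 3) to -0.15 (without hADMSCs-Exo 2). Without REG 2, Apoc3 was at -0.24, Apoc1 at -0.18, Apoe at -0.16 and Apoa5 at 0.70, and without REG 1 Apoa5 was at 0.13. Apob changed sign, between -0.06 and 0.12. The members' median was -0.4 without hADMSCs-Exo 3 and -0.17 with an offset for gene length. With that offset Apoc1 was at -0.24, Apom at -0.15 and Apoa1 at -0.083. Apoa4 and Apoa5 moved up under it, to 0.75 and 0.42.

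Against LFG, hADMSCs-Exo livers likewise had 0 of 10 members called over 12489 genes by edgeR, where 0 of all genes (0%) were called. At an unadjusted p under 0.05 there was 0 of 10 members and 5.98% of all genes, and DESeq2 called 0 members and 60 genes (0.480%). By edgeR the members split evenly, 5 higher and 5 lower, with a median log2 fold change of -0.07 beside -0.059 over all genes. Apoa1, Apoa2 and Apoc1 had negative fitted values though their means of log2 CPM were higher in hADMSCs-Exo. These means were 13.24, 11.78 and 10.52, against 13.13, 11.30 and 10.40 in LFG. The libraries share replicate numbers, though no label pairs them. With that number as a block 8 members were higher and 2 lower, with a median of 0.25 and 0 called, as among all genes (0%). Limma voom, which weights libraries by quality, gave 9 higher and 1 lower and a median of 0.49, also with 0 called (0.00801% of all genes). Apom was the member with the smallest p, at a log2 fold change of 0.53 ± 0.23 (SE) with an unadjusted p of 0.0565 and an edgeR adjusted p of 0.805. Its ranges did not overlap on the TMM scale, which held for 1 of 10 members and 12.3% of all genes. The standard errors of Apoa2 (1.03), Apoc1 (0.80), Apoa1 (0.62) and Apoe (0.60) were each larger than the fold changes they belonged to.

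Leaving out LFG 3 turned the fitted sign of 4 members, Apoa1, Apoa2, Apoc1 and Apoc3. With all libraries, only Apoc3 among them had a lower mean log2 CPM in hADMSCs-Exo (9.85 against 10.00 in LFG). Without LFG 3 the median of the 10 was 0.71, beside 0.0041 over all genes. Apoa2 then stood 1.45 ± 0.61 log2 above LFG, Apoc1 1.00 ± 0.36, Apoe 0.91 ± 0.47 and Apoa1 0.76 ± 0.37, with edgeR adjusted p-values of 0.167, 0.126, 0.243 and 0.217. Apoa5 had the smallest edgeR adjusted p of the members, 0.09, at a log2 fold change of 0.70 ± 0.22. Apoh was at 0.71 ± 0.37, Apoc3 at 0.54 ± 0.25 and Apom at 0.46 ± 0.23, Apob at 0.081 ± 0.30 and Apoa4 at -1.11 ± 1.01. Still 0 of 10 members passed an adjusted p of 0.05, with 7.09% of all 12955 genes passing it (unadjusted, 3 members and 28.5% of all genes), and 5.97% of all genes were called with the limit on fold change. The ranges did not overlap for 8 of 10 members, all higher in hADMSCs-Exo, and for 48.4% of all genes.

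The comparison of REG with LFG sets the livers after the 4 weeks of PBS beside those at the end of the CCl4 course. It called 0 of 10 members by edgeR, as it called 0 of 12517 genes (0%). Apom was the member that passed an unadjusted p under 0.05, which 11.3% of all genes did. Its log2 fold change was 0.81 ± 0.21 (SE), a 1.75-fold higher level in REG, with an unadjusted p of 0.00615 and an edgeR adjusted p of 0.312. DESeq2 gave Apom an adjusted p of 0.00293, where 361 of 12517 genes passed 0.05, and limma one of 0.0224, where 2851 genes did. Limma also put Apoe under 0.05, at a log2 fold change of 0.97 with an adjusted p that rounds to 0.05. Over the alternatives the adjusted p of Apom ran from 0.00293 to 0.928. The side of 0.05 on which it fell thus differed between the tests. Apom was also the member whose ranges did not overlap, as they did not for 19.0% of all genes. By edgeR the median of the 10 members was -0.015, beside -0.068 over all genes, with 4 members higher and 6 lower. Apoa1, Apoa2, Apoc1 and Apoc3 had negative fitted values though their means of log2 CPM were higher in REG. These means were 13.43, 12.29, 10.89 and 10.28, against 13.13, 11.30, 10.40 and 10.00 in LFG. Under limma voom 9 members were higher and 1 lower, with a median of 0.82. By edgeR, Apoh was at 0.64 ± 0.44, Apoe at 0.35 ± 0.59 and Apoa1 at -0.038 ± 0.62 log2. Apoa2 was at -0.12 ± 1.02 and Apoa4 at -1.31 ± 0.81. Apob was at 0.054 ± 0.28, Apoc3 at -0.021 ± 0.61, Apoc1 at -0.17 ± 0.81 and Apoa5 at -0.0088 ± 0.39. The value for Apoa4 was -0.20 without LFG 1.

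Without LFG 3, REG stood above LFG for 9 of the 10 members, and the median was 1.01 beside -0.0051 over all genes. Apoc1 was called, at a log2 fold change of 1.42 ± 0.39 and an edgeR adjusted p of 0.0451. This was 1 of 10 members, where 10.7% of all 12948 genes were called. With an added offset for gene length the call was lost, with Apoc1 at 0.89 ± 0.35 (edgeR adjusted p = 0.126) and 0 of 10 members called, where 8.28% of all genes were. With no limit on fold change Apom passed too (0.74 ± 0.19, edgeR adjusted p = 0.0402), giving 2 of 10 members beside 16.8% of all genes. Both shares are near the background. At an unadjusted p under 0.05 there were 8 of 10 members, 7 higher and Apoa4 lower in REG, where 37.3% of all genes passed. Apoa2 was at 1.97 ± 0.57, Apoe at 1.19 ± 0.41, Apoh at 1.12 ± 0.35, Apoc3 at 1.04 ± 0.31 and Apoa1 at 0.99 ± 0.32 log2, with edgeR adjusted p-values of 0.0529, 0.0773, 0.0635, 0.0557 and 0.0702. Apoa5 was at 0.37 ± 0.34, Apob at 0.057 ± 0.28 and Apoa4 at -1.73 ± 0.63. Ranges did not overlap for 7 of 10 members, all higher in REG, and for 55.3% of all genes. Both comparisons with LFG share its libraries, so their values do not stand independent of each other.

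**Figure D3:**
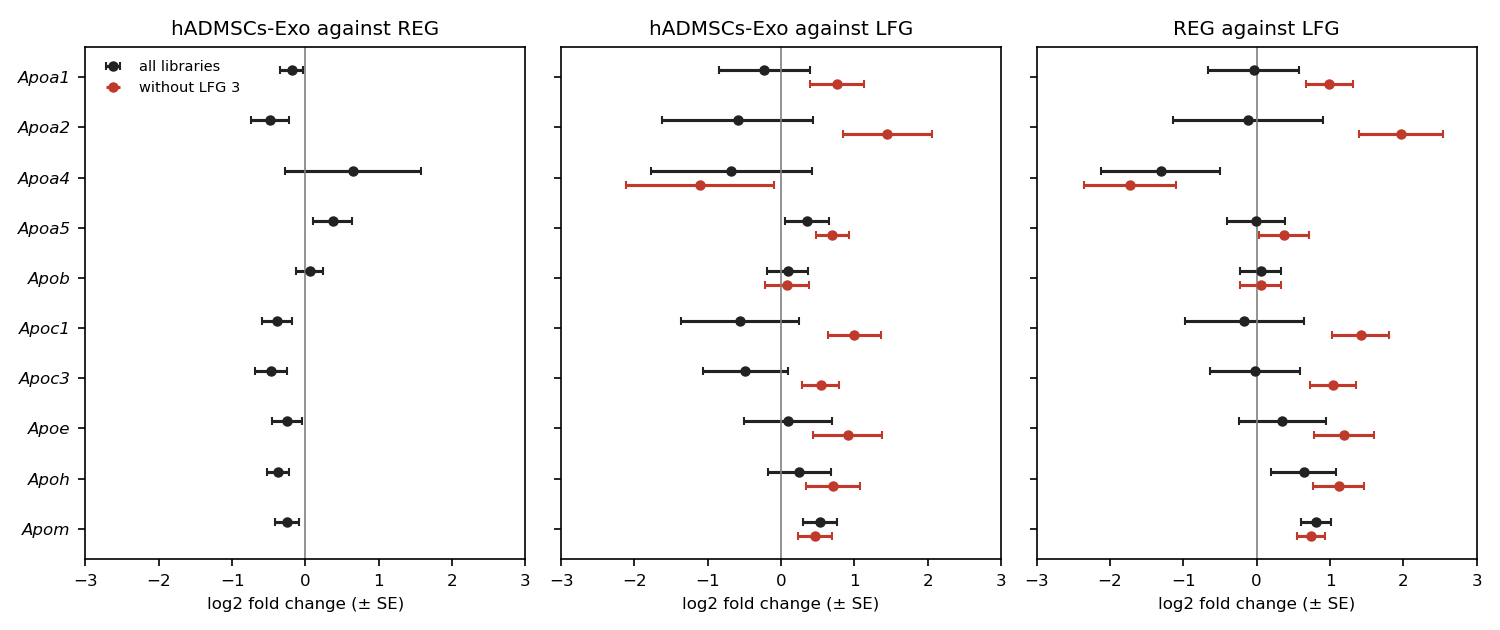
Log2 fold changes (points) with their standard errors (bars) from edgeR for each member in the 3 comparisons, with all libraries (black) and without LFG 3 (red). Against LFG, the points of Apoa1, Apoa2, Apoc1 and Apoc3 cross 0 when LFG 3 is left out, for Apoa2 from -0.12 to 1.97 in REG against LFG, where Apoa5 crosses too (-0.0088 to 0.37), while those of Apob and Apom hardly move.

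Gene length moved with this pattern. The members run from 537 bases (Apoa2) to 13934 bases (Apob) in the table, whose median gene has 3508 bases. Over all genes, short ones were low in LFG 1 and LFG 2 and high in LFG 3. The median deviation from the mean of the 9 libraries was -0.41, -0.36 and 0.70 log2 in LFG 1, 2 and 3 for genes up to 1000 bases, and 0.20, 0.25 and -0.072 for genes over 8000 bases. Apoa2 deviated by -2.72, -0.72 and 1.97 log2 and Apoc1 (744 bases) by -1.68, -0.63 and 1.70. Apoa1, of 1236 bases, deviated by -1.06, -0.54 and 1.20, where genes of 1000 to 2000 bases had medians of -0.24, -0.25 and 0.28. Apom (1013 bases) and Apoa4 went against the trend in LFG 3, at -0.65 and -0.64. With an offset for gene length and without LFG 3, the members' median was 0.59 in REG against LFG and 0.48 in hADMSCs-Exo against LFG, where 0 of 10 members and 5.17% of all genes were called, and the log2 fold change of Apom was 0.30 and 0.12. What part of the members' differences goes with length was not tested further.

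**Figure D4:**
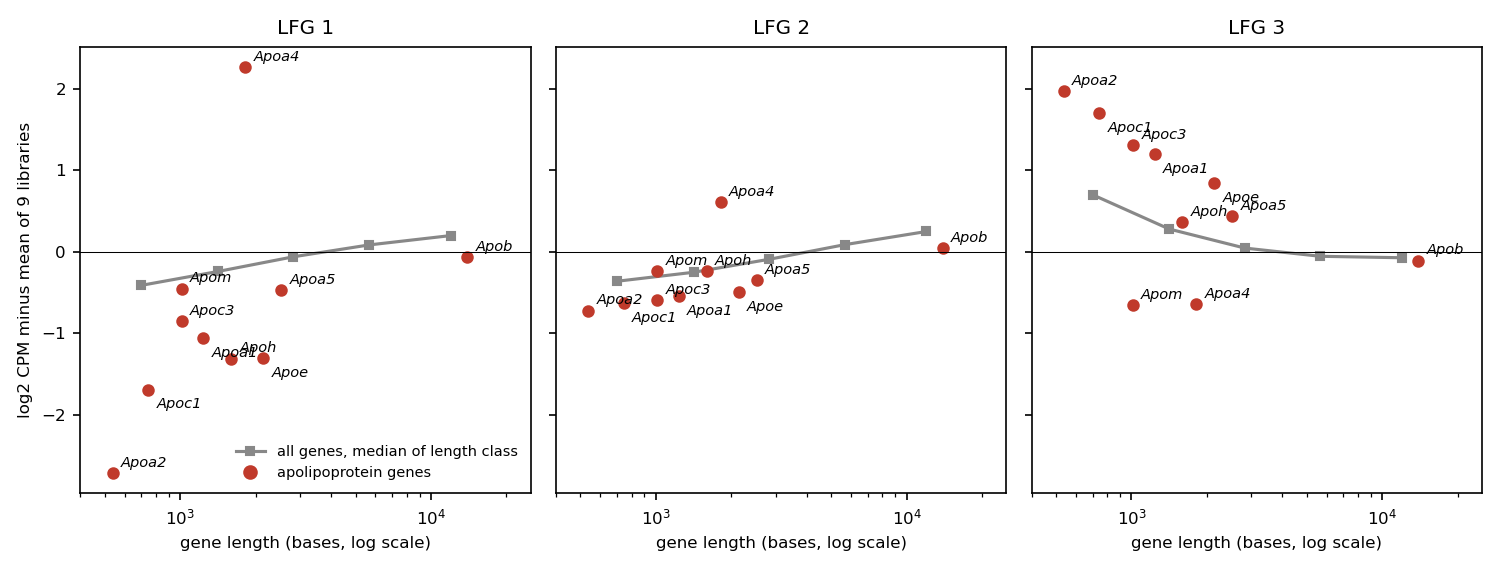
Deviation of each member's log2 CPM from its mean over the 9 libraries, plotted against gene length on a log axis for the 3 LFG libraries (red), with the median deviation of all genes in 5 length classes (grey, drawn at a fixed length within each class). In LFG 1 most members lie below the grey line and in LFG 3 above it, at -2.72 and 1.97 for Apoa2, while Apoa4, Apom and, narrowly, Apob lie on the other side of it in LFG 3.

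Markers of other cell types differed between the same libraries. The summed level of 13 macrophage markers was 2150, 1506 and 193 CPM in LFG 1 to 3, against 595 to 1838 CPM in REG and 1019 to 1269 CPM in hADMSCs-Exo. That of 8 pericentral hepatocyte markers was 1368, 3317 and 16875 CPM in LFG, 6346 to 7570 CPM in REG and 8929 to 12692 CPM in hADMSCs-Exo, the lowest and the highest library again being LFG 1 and LFG 3. Of the 7 periportal markers the sums were 2419, 5234 and 6659 CPM in LFG, and between 2842 and 5498 CPM elsewhere. All 13 macrophage, 10 stellate, 8 pericentral and 7 periportal markers were detected. Their part in the members' levels was not tested. The highest Apoe and the lowest macrophage sum were both in LFG 3, and how they relate was not tested.

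The genes around the family were read from 6 lists. Of 13 genes for VLDL assembly and secretion, 11 for lipases and particle remodelling, 11 for receptors and efflux and 21 transcription regulators, all were tested, and of 11 other apolipoproteins and HDL proteins and 10 lipid droplet genes, 10 and 9 were tested. None was called in any of the 3 comparisons by edgeR with all libraries. In REG against LFG, limma voom called 4 lipase and remodelling genes, 4 transcription regulators and 3 lipid droplet genes, where it called 10.3% of all genes. DESeq2 called 1 lipase and remodelling gene and 1 transcription regulator, and 1.91% of all genes. In hADMSCs-Exo against REG, 5 of these genes had an unadjusted p under 0.05 and a higher level, 6 had a lower one, and 64 did not pass, beside 10.0% of all genes that passed. The corresponding numbers were 2 higher and 2 lower in hADMSCs-Exo against LFG (5.98% of all genes passed) and 4 higher and 8 lower in REG against LFG (11.3%). Without LFG 3 they were 15 higher and 6 lower of 76 in hADMSCs-Exo against LFG (28.5%) and 22 higher and 11 lower in REG against LFG (37.3%). Srebf1, the regulator of fatty acid synthesis, was at 329, 501 and 560 CPM in REG and 216, 241 and 244 CPM in hADMSCs-Exo, a log2 fold change of -0.99 ± 0.20 (unadjusted p = 0.00109, edgeR adjusted p = 0.358). Lipc, hepatic lipase, was at 150, 197 and 133 CPM in REG and 108, 105 and 115 CPM in hADMSCs-Exo (log2 fold change -0.55 ± 0.16, edgeR adjusted p = 0.407). Abca1, which loads cholesterol onto Apoa1, went the other way, at 78.9, 87.3 and 116 CPM against 153, 151 and 122 CPM (0.59 ± 0.17, edgeR adjusted p = 0.407). Hnf4a, a hepatocyte regulator of many apolipoprotein genes, was at 494, 497 and 578 CPM in REG and 619, 768 and 726 CPM in hADMSCs-Exo (0.43 ± 0.15, edgeR adjusted p = 0.432). These 4 genes were picked in part because the ranges of both groups did not overlap, as they did not for 15.5% of all genes. Mttp, which lipidates Apob, was not among the genes with separate ranges in this comparison.

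The median log2 fold changes of these lists in hADMSCs-Exo against REG lay between -0.17 (lipases and remodelling) and 0.17 (receptors and efflux), against -0.25 for the members. In hADMSCs-Exo against LFG they ran from -0.14 (lipid droplet) to 0.23 (receptors and efflux), and in REG against LFG from -0.082 (lipid droplet) to 0.29 (lipases and remodelling). Without LFG 3 they ran from -0.16 (lipid droplet) to 0.61 (other apolipoproteins and HDL proteins) in hADMSCs-Exo against LFG, and 4 of the 76 genes tested were called there, 2 higher and 2 lower, where 5.97% of all genes were. Among them Lpl, lipoprotein lipase, had a log2 fold change of -1.99 ± 0.32 (edgeR adjusted p = 0.0249), and Nr1h4, the bile acid receptor, one of 1.12 ± 0.23 (edgeR adjusted p = 0.0348). Both were named after their values had been seen. Both genes were also called in REG against LFG without LFG 3, at -1.89 ± 0.32 for Lpl and 1.18 ± 0.19 for Nr1h4 (edgeR adjusted p = 0.0159 for each). Without the same library, 13 of the 76 genes tested were called in REG against LFG, 7 higher and 6 lower in REG, where 10.7% of all genes were. Among them Lipc had a log2 fold change of 1.44 ± 0.34 (edgeR adjusted p = 0.0327). Srebf1 was at 1.83 ± 0.29 (edgeR adjusted p = 0.0154) and Angptl4, an inhibitor of lipoprotein lipase, at -1.11 ± 0.20 (edgeR adjusted p = 0.0178). With the added offset for gene length, the genes called numbered 7 of 76 in REG against LFG (2 higher and 5 lower, beside 8.28% of all genes) and 2 of 76 in hADMSCs-Exo against LFG (both lower, beside 5.17%). Lpl kept its call in both comparisons, and Srebf1 and Angptl4 kept theirs in REG against LFG. The call of Nr1h4 was lost in both, since its log2 fold change of 0.96 in each fell under 1. Its edgeR adjusted p was 0.046 in hADMSCs-Exo against LFG and 0.0302 in REG against LFG. The call of Lipc was lost in REG against LFG, at 1.19 ± 0.33 (edgeR adjusted p = 0.0543). In REG against LFG without LFG 3, and with no offset, the medians were 0.67 for lipases and remodelling and 0.39 for transcription regulators. They were 0.37 for the other apolipoproteins and HDL proteins and 0.25 for VLDL assembly and secretion. Receptors and efflux were at 0.015 and lipid droplet genes at -0.11, beside 1.01 for the members.

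The genes most like the family in pattern, by the Pearson correlation of log2 CPM over the 9 libraries with the mean of the members' standardised values, were Rabggta (0.991), Mrpl9 (0.987), Cyp2a12 (0.984), Ddrgk1 (0.982) and Tmem205 (0.98). Without LFG 3 the same 5 correlations were 0.977 to 0.991. The mean of the standardised values was lowest in LFG 1 (-1.26) and LFG 2 (-0.49) and highest in LFG 3 (0.75) and REG 2 (0.70). Apoa4, the member that varied most, was followed closely by Pkp1 (0.96), Ccdc18 (0.955), Usp18 (0.939) and Trpm4 (0.931). The genes of similar pattern were picked from 12750 genes for their correlation over 9 libraries that share groups, and the values describe these libraries.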

How the data were processed

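RNA from mouse livers was extracted with Trizol, made into libraries with an NEBNext Ultra kit and sequenced on a NovaSeq instrument. The submitters' processing notes name cutadapt 1.15, HISAT2 2.0.5, HTSeq 0.9.1, DESeq 1.30.0 and the build GRCm38. The authors deposited raw read counts per gene for 9 libraries, and beside them FPKM, which a script recovered from the counts, the gene lengths and the library totals with a relative error no larger than 9.19e-07. Strand use is not given in the sources used here. Of 21936 genes, 21817 were in GENCODE M21.

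Counts were tested on the whole table with edgeR 4.0.16 in R 4.3.3 (quasi-likelihood test, two-sided, TMM scaling, edgeR's filter on low counts, only the 6 libraries of the groups compared, no covariates), with Benjamini-Hochberg adjustment over all genes. A call needed an adjusted p under 0.05 together with a log2 fold change of 1 or more in either direction. Log2 CPM used a prior count of 2. Ranges of groups were compared on log2 CPM scaled over the 9 libraries. Levels were compared between genes by FPKM. The fit was tested on simulated data with 200 genes changed by known amounts. Log2 changes of 1 were mostly not recovered there, so an absence of calls cannot be read as an absence of change. Python 3.11.15, pandas 2.3.3 and matplotlib 3.10.9 were used for summaries and plots.

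The members, the gene lists, the rule for named genes and the tests were chosen with earlier results of these data known. The genes named are the 10 members, for each list the genes called or else up to 3 with the smallest p and separate ranges, and 5 genes of most similar pattern. The results of some genes under this rule are not reported here. Alternatives were edgeR's RLE size factors, library totals alone, DESeq2 1.42.0, limma 3.58.1 with voom and quality weights, no filter (at least 1 count), a minimum of 10 counts in each library, 1 fit of all 9 libraries, the replicate number as a block, leaving out each library, calls without the limit on fold change, calls by unadjusted p, and for shares and levels another denominator and TPM. An offset for gene length (lowess, span 0.3), alone and without LFG 3, was added after the data had been seen.

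Libraries held 13837445 to 19840917 counts, so that for most members the spread between libraries and not counting error sets the precision. Libraries of a group differed by more than sampling noise (chi-square per gene of at least 27). The labels do not say that libraries came from separate mice, so p-values measure the spread between these samples. The groups share replicate numbers 1 to 3, and the labels give no pairing between groups. Deviations from the group means correlated by 0.101, 0.308 and 0.18 for the same numbers of hADMSCs-Exo and LFG, all over 0.1. For hADMSCs-Exo with REG the values were 0.159, 0.00938 and 0.0336, and for REG with LFG 0.415, -0.202 and 0.305, of which some lay under 0.1.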

Additional observations from a re-analysis of the deposited data

How the results depend on the processing

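All values are log2 fold changes unless stated. Against REG, the directions of the members in hADMSCs-Exo held under every alternative but for 5 values of Apoa4 and Apob, with Apoa4 at -0.072 under limma voom and Apob at -0.064 with the gene length offset. In hADMSCs-Exo against LFG, 22 of 160 values turned, and in REG against LFG 40 of 160. The cause was not tested. In hADMSCs-Exo against LFG, library totals alone gave -0.043 for Apob. Limma voom gave 0.53 for Apoa1, 1.08 for Apoa2, 0.67 for Apoc1 and 0.37 for Apoc3. With the gene length offset Apoa2 was at 0.086, and with the offset and without LFG 3 Apoa1, Apoa2, Apoc1 and Apoc3 were at 0.48, 1.02, 0.62 and 0.22. In REG against LFG, RLE size factors and DESeq2 each gave 0.0067 for Apoa5, library totals alone 0.011 for Apoa2 and -0.16 for Apob, no filter 0.018 for Apoa1, 0.049 for Apoa5 and 0.041 for Apoc3, and at least 10 counts in every library 0.0018 for Apoc3. Limma voom gave 0.77, 1.62, 0.37, 1.16 and 0.93 for Apoa1, Apoa2, Apoa5, Apoc1 and Apoc3 and a members' median of 0.82. The gene length offset gave 0.027, 0.41, 0.13 and 0.088 for Apoa1, Apoa2, Apoc1 and Apoc3, and together with leaving out LFG 3 it gave 0.59, 1.37, 0.17, 0.89 and 0.59 for Apoa1, Apoa2, Apoa5, Apoc1 and Apoc3 and a median of 0.59.

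The replicate block changed no call among the members. In hADMSCs-Exo against LFG, the replicate block gave 0.12 for Apoa1, 0.51 for Apoa2 and 0.16 for Apoc1 and a median of 0.25. In REG against LFG it gave 0.33, 1.12, 0.60 and 0.31 for Apoa1, Apoa2, Apoc1 and Apoc3 and a median of 0.46, and in hADMSCs-Exo against REG a median of -0.26. In every comparison the libraries share only a number.

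Leaving out each library in turn, the members' median ran from -0.40 to -0.17 in hADMSCs-Exo against REG, with Apoa4 from -1.28 to 1.47 and Apob from -0.06 to 0.12. In hADMSCs-Exo against LFG the median ran from -0.29 to 0.71, Apoa1 from -0.60 to 0.76, Apoa2 from -1.13 to 1.45, Apoa4 from -2.57 to 0.43, Apoc1 from -1.04 to 1.00, Apoc3 from -0.84 to 0.54, Apoe from -0.28 to 0.91 and Apoh from -0.079 to 0.71. Apoa5 ran from 0.19 to 0.70 there. In REG against LFG the number of members called ran from 0 to 1 (Apoc1, without LFG 3), and the median from -0.22 to 1.01. Apoa1 ran from -0.41 to 0.99, Apoa2 from -0.66 to 1.97, Apoa4 from -2.08 to -0.20 and Apoa5 from -0.32 to 0.37. Apoc1 ran from -0.65 to 1.42, Apoc3 from -0.37 to 1.04, Apoe from -0.017 to 1.19 and Apoh from 0.31 to 1.12.

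An unadjusted p with no limit on fold change gave 1 member in hADMSCs-Exo against REG (10.0% of all genes) and 1 in REG against LFG (11.3%). Genes called over the whole table rose from 1 to 67 with DESeq2 in hADMSCs-Exo against REG, from 0 to 60 in hADMSCs-Exo against LFG, and from 0 to 239 with DESeq2 and 1285 with limma voom in REG against LFG. Without the counts of the 10 other genes of most counts, the members' share was 6.51% in REG and 5.53% in hADMSCs-Exo. With TPM the order of levels was the same, with 8 pairs of neighbours overlapping. Limits are the 3 libraries a group, the distance of LFG 3 from the other LFG libraries, and the absence of a library without CCl4.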
